A study of Mus musculus with 9 samples.

Results

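The genes Myh2, Myh1, Myh4, Acta1, Actn3, Tnnt3, Tnni2, Tnnc2, Mylpf and Atp2a1 encode the contractile proteins and the calcium pump of fast skeletal muscle fibres. Their levels were followed in bulk RNA sequencing of mouse quadriceps after volumetric muscle loss, the surgical removal of more muscle than can regrow. The genes were taken by name, and all 10 of the 10 names matched 1 entry each among the 55536 gene identifiers of the deposited tables. All 10 were among the 16039 genes with enough counts to be tested. The labels give 4 libraries as C57BL/6 wild type and 5 as C57BL/6 Il17ra-/-, a knockout of a receptor subunit for interleukin-17 cytokines, from mice with an age label of 6 weeks. All 9 share the injury. The sample characteristics name saline as the material and a harvest 1 week after surgery for every library, whereas the extraction protocol speaks of PCL and a collection at 6 weeks, so treatment and time are uncertain in the same way for both groups. The labels do not describe the allele, name no cell type to which the knockout is restricted, and tie no library to a single animal, so p-values measure the spread between libraries, which may in part be technical. The design text speaks of animals in triplicate, while 4 and 5 libraries carry the 2 labels. Names such as wild-type replicate 1 repeat these labels. No batch is labelled, but the names of the deposited tables carry one letter code for all libraries labelled wild type and another for all labelled Il17ra-/-. What the letters stand for is not stated, and whatever they mark cannot be told apart from genotype in any comparison given here.

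A muscle fibre contracts when calcium binds troponin on the thin filament and frees actin for the heads of myosin. Fibre types differ in their isoforms of myosin and of the troponins. In limb muscle of the adult mouse the myosin heavy chains form a series from slow oxidative (Myh7, type I) through fast oxidative (Myh2, type IIa) and intermediate (Myh1, type IIx) to fast glycolytic (Myh4, type IIb). The fast forms of the troponins, of the regulatory light chain and of the calcium pump that refills the sarcoplasmic reticulum accompany the fast myosins.

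The 3 fast myosins lie side by side on the plus strand of chromosome 11 (GRCm38): Myh2 from 67171027 to 67197517, Myh1 from 67200052 to 67224575 and Myh4 from 67238029 to 67260446, with 40, 40 and 39 separate exon blocks. Their promoters are shown because these neighbours differed from each other in how far they stood apart between the groups. The 250 bases before the RefSeq start (GRCm38.p6, plus strand) are printed 5′ to 3′ from chr11:67170777-67171026, chr11:67199852-67200101 and chr11:67237562-67237811. The gene coordinates above are from GENCODE M21, whose start matches that of RefSeq for Myh2 only. The window of Myh1 runs past its GENCODE start of 67200052, and that of Myh4 ends short of its GENCODE start of 67238029. Positions before the start are counted from the RefSeq start. Capitals mark the longest stretch that all 3 windows share and, within 50 bases of the start, the letters TATAAA of a TATA box.

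Myh2: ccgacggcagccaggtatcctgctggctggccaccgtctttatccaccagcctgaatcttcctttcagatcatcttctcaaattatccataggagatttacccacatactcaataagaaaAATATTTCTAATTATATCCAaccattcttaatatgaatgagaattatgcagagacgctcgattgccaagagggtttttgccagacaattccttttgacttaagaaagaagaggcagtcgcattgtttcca

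Myh1: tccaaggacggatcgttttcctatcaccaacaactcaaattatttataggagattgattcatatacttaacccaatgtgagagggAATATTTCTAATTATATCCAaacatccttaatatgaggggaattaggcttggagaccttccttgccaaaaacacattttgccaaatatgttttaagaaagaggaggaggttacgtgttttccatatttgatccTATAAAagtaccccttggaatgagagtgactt

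Myh4: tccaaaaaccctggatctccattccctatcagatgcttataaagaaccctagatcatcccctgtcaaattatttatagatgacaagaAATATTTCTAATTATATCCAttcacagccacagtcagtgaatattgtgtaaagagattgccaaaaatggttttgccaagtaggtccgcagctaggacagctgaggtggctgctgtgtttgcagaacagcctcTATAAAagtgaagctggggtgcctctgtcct

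The shared stretch is 20 bases long and begins 130, 165 and 163 bases before the start of Myh2, Myh1 and Myh4. Among 32851 promoter windows of the same length in the table, on either strand, it occurred in these 3 alone. The letters TATAAA begin 133 bases after the beginning of the stretch in Myh1 and 132 bases after it in Myh4. In Myh2 they begin 140 bases after it, past the RefSeq start, so they stand outside the printed window. The letters in Myh1 lie before its RefSeq start but past its GENCODE start. The MEF2 consensus, searched on both strands, was present in the windows of Myh1 and Myh4, and in 2.92% of all windows. The table held windows for 7 of the 10 genes. The E-box CANNTG was found in 5 of the 7 and in 66.2% of all windows, the MCAT letters CATTCC in 3 of the 7 and in 12.6%, TATAAA in 3 of the 7 and in 12.4%, and the CArG box consensus in 2 of the 7 and in 1.47%. The letters TCAGGTT of the MEF3 motif were in none of the 7 and in 3.49% of all windows. E-boxes can overlap the other motifs, and all of these are matches of letters only.

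Total counts per library ran from 31294089 to 46435401. On the first principal component (34.3% of the variance) wild-type replicate 2 stood apart, as did Il17ra-/- replicate 1 on the second (17.4%). The level of Il17ra was higher in the libraries labelled Il17ra-/- (208 ± 43.2 CPM, SD, n = 5) than in those labelled wild type (96.8 ± 19.7 CPM, SD, n = 4), which goes against the labels if the whole transcript was lost. The labels do not say which exons were deleted, and every direction given here refers to the labels. The unit CPM is the count of a gene relative to the library total, scaled with TMM factors. Of the 16039 genes, 491 (3.06%) were called at an adjusted p under 0.05 by edgeR's quasi-likelihood test and 217 (1.35%) were called higher in the libraries labelled Il17ra-/-. Higher calls made up 44.2% of all calls, and 58.7% with library totals in place of TMM factors. The defining transcripts of skeletal muscle Acta1, Ckm, Mb, Des, Ttn and Neb summed to 785 to 2002 CPM and 2421 to 3131 CPM in the 2 groups. Markers of connective tissue were far more abundant, with 5 genes summing to 34017 to 48188 CPM over the 9 libraries.

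Myh2 and Acta1 rose in the libraries labelled Il17ra-/-, and the other 8 fast fibre genes did not pass the test. All 10 had a positive log2 fold change (Il17ra-/- minus wild type, with the standard error, SE), from 0.13 for Actn3 to 1.95 for Myh2, with a median of 0.52 against −0.00 over all tested genes. Without wild-type replicate 4, which had the lowest level of 9 of the 10 genes among the libraries of its label, the median was 0.32. The 2 called genes are read against a background of 1.35% of genes called higher. For 3 of the 10 (Myh2, Acta1 and Tnni2) no library of one label lay within the range of the other, where 4.63% of all tested genes were higher in every library labelled Il17ra-/- than in every library labelled wild type. In bulk RNA, fewer fibres of a type and less RNA per fibre cannot be told apart.

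**Figure D1:**
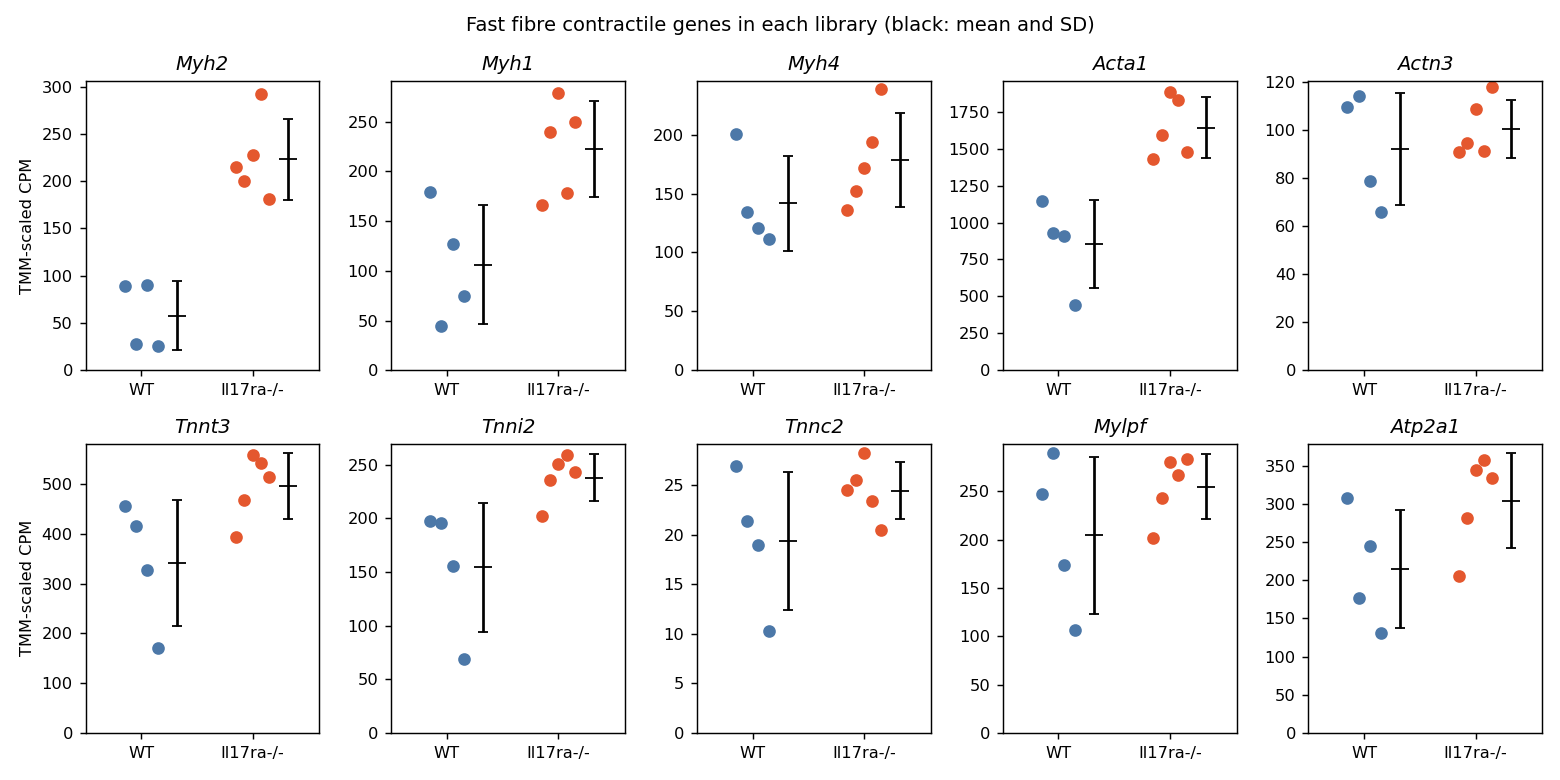
TMM-scaled CPM (vertical axis, starting at 0, different for each panel) of the 10 fast fibre genes in 4 libraries labelled WT (blue) and 5 labelled Il17ra-/- (red). Black bars give the mean and SD. The groups are separate for Myh2, Acta1 and Tnni2 and overlap in the other panels, and the WT library with the lowest value is replicate 4 in 9 panels and replicate 2 for Myh1.

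Among the 3 fast myosins, the difference between the groups was largest for Myh2. Myh2, the myosin of fast oxidative fibres, stood at 88.8, 27.3, 90.2 and 25.1 CPM in wild-type replicates 1 to 4 and at 215, 199.8, 228, 292 and 181 CPM in Il17ra-/- replicates 1 to 5. The highest wild-type library was below the lowest of the other group, and the wild-type libraries split into 2 near 90 and 2 near 26 CPM. The log2 fold change was 1.95 (SE 0.36, edgeR adjusted p = 0.00838), and it was called under all 18 alternative settings (1.70 to 2.25).

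Myh1, the myosin of intermediate fast fibres, stood at 179.5, 44.3, 127 and 74.3 CPM in wild-type replicates 1 to 4 and at 166, 239.8, 279, 178 and 249.5 CPM in those labelled Il17ra-/-. Wild-type replicate 1 lay above 2 of the Il17ra-/- libraries, and the other 3 wild-type libraries lay below all 5. Its log2 fold change of 1.07 (SE 0.31, adjusted p = 0.0953) did not pass. It did without wild-type replicate 1 (1.45, adjusted p = 0.0181), with limma voom (adjusted p = 0.0447) and with no filter on low counts (adjusted p = 0.0127). Myh4, the myosin of fast glycolytic fibres, stood at 201, 134, 121 and 112 CPM against 136, 152, 171, 193.5 and 239 CPM. Its groups overlapped over most of their range, with a log2 fold change of 0.33 (SE 0.19, adjusted p = 0.415).

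The levels of the 4 adult myosins relative to each other, per kilobase of exon, differed between the groups. Myh4 made up 43.6, 66.8, 37.4 and 53.7% of the 4 in wild-type replicates 1 to 4 and 25.4, 25.0, 24.4, 28.7 and 36.1% in Il17ra-/- replicates 1 to 5. Myh2 made up 16.3, 11.5, 23.5 and 10.2% in the libraries labelled wild type and 33.8, 27.6, 27.3, 36.6 and 23.1% in the others. The share of Myh1 was 32.2 ± 7.70% (SD, n = 4) and 33.0 ± 5.55% (SD, n = 5), and that of the slow myosin Myh7 was 2.11 ± 0.98% and 9.40 ± 2.51%. These shares are descriptions. In the libraries labelled wild type Myh4 had the highest share in each of the 4, closely followed by Myh1 in replicate 3, whereas among those labelled Il17ra-/- the highest was Myh2 in replicates 1 and 4, Myh1 in replicates 2 and 3, and Myh4 in replicate 5.

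**Figure D2:**
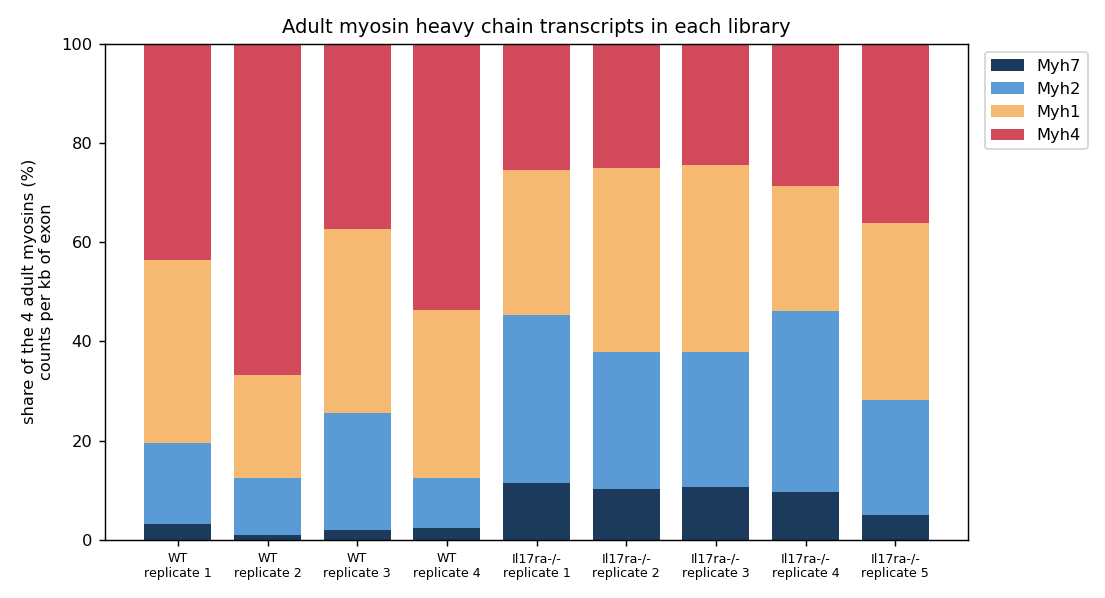
Share of Myh7, Myh2, Myh1 and Myh4 in the sum of the 4 (percent, counts per kilobase of exon) in each of the 9 libraries, stacked from slow at the bottom to fast glycolytic at the top. Myh4 takes 37.4 to 66.8% of the bar in the WT libraries and 24.4 to 36.1% in the Il17ra-/- libraries.

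Ratios of 2 myosins within a library, which do not depend on the scaling of libraries, were compared directly. The ratio of Myh4 to Myh2 per kilobase was 2.68, 5.82, 1.59 and 5.27 in wild-type replicates 1 to 4 and 0.75, 0.90, 0.89, 0.79 and 1.56 in those labelled Il17ra-/-. Every wild-type value was above every other value, although wild-type replicate 3 (1.59) and Il17ra-/- replicate 5 (1.56) came close to each other. The mean log2 ratio was lower in the libraries labelled Il17ra-/- (difference −1.84, SDs 0.88 and 0.42, two-sided exact permutation p = 0.0159, adjusted p = 0.0258 over 13 ratios). The value 0.0159 is the smallest this design can give. The ratio of Myh1 to Myh2 was 2.27, 1.82, 1.58 and 3.32 against 0.87, 1.35, 1.38, 0.69 and 1.55, again without overlap (difference −0.95, exact permutation p = 0.0159, adjusted p = 0.0258). Both calls were lost without wild-type replicate 2 (differences −1.58 for Myh4 to Myh2 and −1.04 for Myh1 to Myh2, adjusted p = 0.0580 for both), replicate 3 (−2.20 and −1.10, adjusted p = 0.0516) or replicate 4 (−1.63 and −0.75, adjusted p = 0.0516), and without both libraries that stood apart (−1.50 and −0.95, adjusted p = 0.0825). In the first 3 cases, 3 libraries against 5 cannot give an unadjusted p below 0.0357. The ratio of Myh4 to Myh1 overlapped between the groups, at 1.18, 3.20, 1.007 and 1.58 against 0.86, 0.67, 0.65, 1.15 and 1.0105. It did not pass after adjustment (difference −0.89, exact permutation p = 0.0476, adjusted p = 0.0516), and without wild-type replicate 2 the difference was −0.54.

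The log2 fold changes stood in the order of the series, 3.07 for Myh7 (SE 0.45, adjusted p = 0.00177), 1.95 for Myh2, 1.07 for Myh1 and 0.33 for Myh4. Of the neighbouring steps, Myh1 against Myh2 passed in the test of the ratio itself and Myh4 against Myh1 did not. Myh2 against Myh7 passed too (difference −1.23, exact permutation p = 0.0317, adjusted p = 0.0375). That call was lost in 9 of 12 alternatives, namely without any single library other than Il17ra-/- replicate 5 and without both libraries that stood apart, with differences of −1.48 to −0.94 and adjusted p-values of 0.0516 to 0.135. The close similarity of the fast myosins limits their separation by short reads. Of all 100-base windows in the annotated transcripts, 9.49% for Myh2, 13.99% for Myh1 and 3.85% for Myh4 also occur in transcripts of another gene, mostly another myosin, and 24.6, 30.5 and 18.9% of 50-base windows do. A read that falls wholly in a window shared with another myosin has more than 1 place to map. The shares also count windows found in antisense transcripts of the same locus, such as Myhas for Myh1, which add no second place. No source used here states the read length. Exons of Myh1 also overlap those of the antisense gene Myhas over 515 bases (8.11%), and exons of Myh2 those of 9430073C21Rik over 237 bases (3.32%). Read pairs that fall there are left uncounted, so both levels are lower limits.

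The thin filament gene Acta1, on chromosome 8 from 123891769 to 123894751 (minus strand), encodes skeletal muscle actin and was the most abundant of the 10. It is also among the defining transcripts of skeletal muscle summed above and is not particular to fast fibres. It stood at 1146, 928, 909 and 439 CPM in wild-type replicates 1 to 4 and at 1427, 1590, 1886, 1831 and 1481 CPM in those labelled Il17ra-/-. The groups did not overlap, and wild-type replicate 4 was the lowest by a wide margin. Acta1 rose by 0.94 on the log2 scale (SE 0.21, edgeR adjusted p = 0.0289). The call was lost without wild-type replicate 3 (0.98, adjusted p = 0.0641) and without Il17ra-/- replicate 1 (0.99, adjusted p = 0.0509), 2 (0.95, adjusted p = 0.0624), 3 (0.89, adjusted p = 0.0803) or 4 (0.90, adjusted p = 0.0784). It was also lost with replicate number as a block (1.05, adjusted p = 0.0616), and in all 6 cases the log2 fold change stayed between 0.89 and 1.05.

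The fast troponins form the calcium switch of the thin filament: Tnnt3 anchors the complex on tropomyosin, Tnni2 inhibits the binding of myosin at rest and Tnnc2 binds calcium. Tnni2 and Tnnt3 are neighbours on the plus strand of chromosome 7, from 142441808 to 142444410 and from 142498836 to 142516009. Tnni2 stood at 197, 195.6, 155.5 and 68.8 CPM against 202, 236, 250.6, 259 and 243 CPM. Its groups did not overlap, but wild-type replicate 1 and Il17ra-/- replicate 1 were nearly level, and the log2 fold change of 0.63 (SE 0.23, adjusted p = 0.195) did not pass. Tnnt3 stood at 456, 416, 327 and 171 CPM against 394.5, 468, 559, 543 and 514 CPM. Il17ra-/- replicate 1 lay within the range of the wild-type libraries and the other 4 lay above it (0.53, SE 0.22, adjusted p = 0.249). Tnnc2, on chromosome 2 from 164777161 to 164779967 (minus strand), stood at 27.0, 21.4, 19.0 and 10.3 CPM against 24.5, 25.6, 28.3, 23.5 and 20.5 CPM, and its groups overlapped (0.33, SE 0.22, adjusted p = 0.480). Its exons overlap those of Ube2c on the other strand over 592 of 800 bases (74.0%). Counting used no strand and leaves out read pairs that fall on exons of more than 1 gene, so the level of Tnnc2 is a lower limit and uncertain.

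Of the remaining 3 genes none passed. Actn3, alpha-actinin-3, crosslinks actin at the Z-disc of fast fibres and lies on chromosome 19 from 4861216 to 4877909 (minus strand). It stood at 109, 114, 78.8 and 65.7 CPM against 90.7, 94.4, 108.5, 91.0 and 118 CPM, with a log2 fold change of 0.13 (SE 0.16, adjusted p = 0.743), the smallest of the 10. Mylpf, the fast regulatory light chain of myosin, lies on chromosome 7 from 127208890 to 127214298 (plus strand) and stood at 248, 290.1, 174 and 106 CPM against 201, 243, 280.4, 267 and 283 CPM. Wild-type replicate 2 was above all 5 libraries labelled Il17ra-/- (0.32, SE 0.23, adjusted p = 0.525). Atp2a1, the fast calcium pump SERCA1, lies on chromosome 7 from 126445858 to 126463108 (minus strand) and stood at 307, 177, 245 and 131 CPM against 205, 281, 344, 357 and 334 CPM. Its groups overlapped (0.50, SE 0.22, adjusted p = 0.283), and 21.9% of its exon bases lie under exons of Rabep2 on the other strand, where read pairs are left uncounted.

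Per kilobase of exon, the order of the levels in the libraries labelled wild type was Acta1 (557 ± 194 CPM per kb, SD, n = 4), Tnnt3 (216 ± 79.9), Mylpf (193 ± 76.4), Tnni2 (103 ± 40.2), Atp2a1 (61.8 ± 22.3), Actn3 (31.7 ± 8.07), Tnnc2 (24.3 ± 8.70), Myh4 (23.6 ± 6.69), Myh1 (16.7 ± 9.38) and Myh2 (8.11 ± 5.12). Acta1 was separated from Tnnt3 by more than their SDs, while each of the neighbours from Actn3 to Myh2 lay within an SD of the next. The libraries labelled Il17ra-/- kept the first 5 in the same order, from 1070 ± 134 (SD, n = 5) for Acta1 to 87.5 ± 17.99 for Atp2a1. The last 5 were then close together, with Myh1 at 35.03 ± 7.63, Actn3 at 34.6 ± 4.16, Myh2 at 31.3 ± 5.95, Tnnc2 at 30.6 ± 3.56 and Myh4 at 29.6 ± 6.66, differences within their SDs. Tnnc2 and Atp2a1 are lower limits here, with 74.0% and 21.9% of their exon bases under exons of another gene. Read pairs there are left uncounted while the division is by the full exon length, so the places of both in the order are uncertain.

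Against the slow or alternative isoform of the same protein, most fast genes were less abundant in the libraries labelled Il17ra-/-. The ratio of Tnnc2 to the slow and cardiac troponin C gene Tnnc1, per kilobase, was 3.45, 3.94, 4.27 and 3.69 in the libraries labelled wild type and 1.03, 0.85, 0.88, 0.80 and 1.82 in those labelled Il17ra-/-. The wild-type libraries lay close together here, with Il17ra-/- replicate 5 the nearest of the other group (log2 difference −1.90, SDs 0.13 and 0.49). Tnnc2 is a lower limit, as 74.0% of its exon bases lie under exons of Ube2c, so the level of this ratio is uncertain. The ratio of Mylpf to the slow light chain Myl2 was 21.2, 33.4, 21.02 and 21.6 against 5.70, 6.56, 5.35, 6.999 and 14.3 (−1.72), and that of Tnnt3 to Tnnt1 was 51.7, 42.5, 50.04 and 39.6 against 10.5, 13.5, 15.4, 15.4 and 31.9 (−1.51). Neither pair of groups overlapped. The same held for Actn3 over Actn2, the actinin of all fibres (−1.77), for Myh4 over Myh7 (−3.07) and for Myh1 over Myh7 (−2.18). Each of these 6 ratios had an exact permutation p of 0.0159 and an adjusted p of 0.0258 over the 13 ratios.

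The 6 calls were lost without wild-type replicate 2 (adjusted p = 0.0580), 3 or 4 (adjusted p = 0.0516) or both libraries that stood apart (adjusted p = 0.0825). The differences themselves stayed close in size, at −1.92 to −1.85 for Tnnc2 over Tnnc1, −1.58 to −1.39 for Tnnt3 over Tnnt1, −1.78 to −1.47 for Mylpf over Myl2, −1.97 to −1.50 for Actn3 over Actn2, −3.23 to −2.44 for Myh4 over Myh7 and −2.23 to −1.89 for Myh1 over Myh7. As for the myosin pairs, the smallest unadjusted p was then 0.0357 with 3 libraries against 5 and 0.0571 with 3 against 4. Tnni2 over Tnni1 was lower as well (−1.71, exact permutation p = 0.0317, adjusted p = 0.0375), with overlapping groups. That call was lost in 8 of 12 alternatives, without wild-type replicate 2, 3 or 4, without Il17ra-/- replicate 1, 2, 3 or 4, and without both libraries that stood apart (differences of −1.75 to −1.45, adjusted p = 0.0619 to 0.135). Atp2a1 over Atp2a2, whose product SERCA2 is also made outside muscle, went the other way (0.60, exact permutation p = 0.0317, adjusted p = 0.0375), with the call lost in 8 of 12 alternatives: without wild-type replicate 2, 3 or 4, without Il17ra-/- replicate 2, 3, 4 or 5, and without both libraries that stood apart (differences of 0.41 to 0.74, adjusted p = 0.0571 to 0.0844). Acta1 over Actc1, the cardiac actin of developing muscle, did not pass (1.61, exact permutation p = 0.0635, adjusted p = 0.0635), but did without Il17ra-/- replicate 5 (2.05, adjusted p = 0.0338). The ratios share genes and libraries and are not independent of each other.

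**Figure D3:**
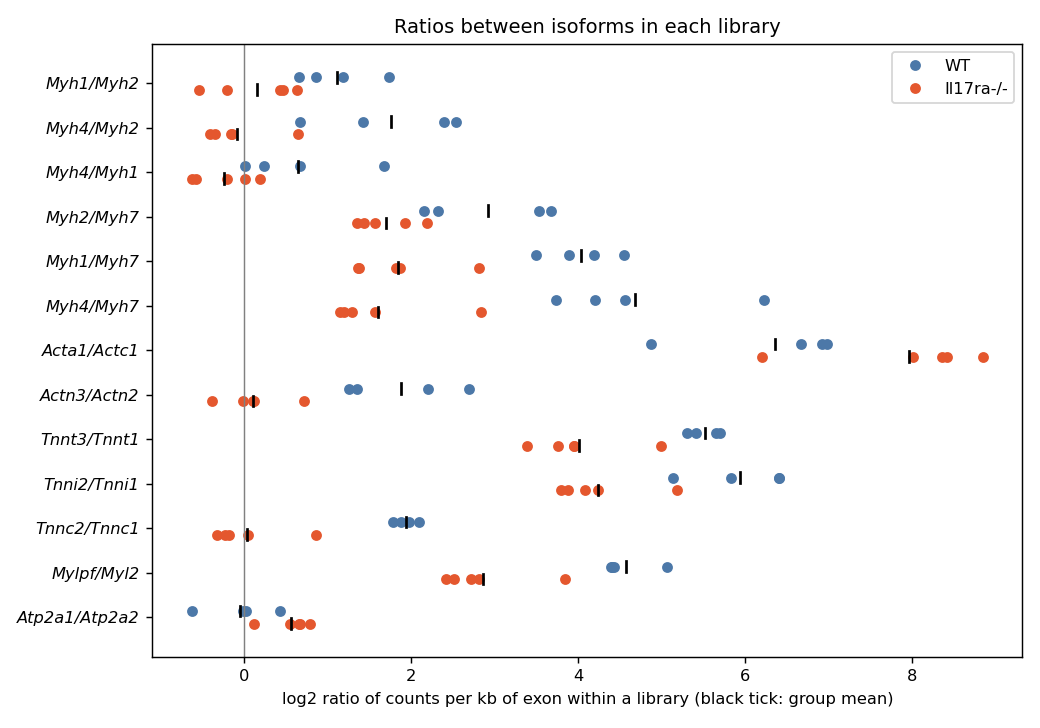
Log2 ratio of counts per kilobase of exon of 2 genes within each library (horizontal axis) for the 3 pairs of fast myosins and for each fast gene over its isoform partner, in 4 WT (blue) and 5 Il17ra-/- (red) libraries. Black ticks are group means. The WT libraries lie to the right of the Il17ra-/- libraries without overlap for 8 of the 13 ratios, and to the left on average for Acta1/Actc1 and Atp2a1/Atp2a2.

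Of 12 genes that all fibre types use, 7 rose and none fell (median log2 fold change 1.12), among them Actn2 (1.81, adjusted p = 0.00284), Mb, the oxygen store myoglobin (1.16, edgeR adjusted p = 0.0111), Ryr1, the calcium release channel (1.15, adjusted p = 0.0153), Myom1 (1.012, adjusted p = 0.0195), Myot (1.10, adjusted p = 0.0406) and Ldb3 (0.97, adjusted p = 0.0449). Without a single library the count ran from 3 without Il17ra-/- replicate 3 or 5 to 10 without wild-type replicate 1. It was 4 without wild-type replicate 4 or Il17ra-/- replicate 1, 2 or 4, and 6 without both libraries that stood apart. It was 11 with library totals alone, DESeq2, limma voom or no filter. Of 12 slow fibre genes 9 rose (median 1.82), and of 7 further fast fibre genes none was called by edgeR (median 0.29), by DESeq2 or by limma voom, and none had an unadjusted p under 0.05. The 2 with the smallest p were Tpm1, alpha-tropomyosin (0.35, adjusted p = 0.323), and Pvalb, the calcium buffer parvalbumin (−0.55, adjusted p = 0.340).

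Per 1000 counts of the 12 genes of all fibres, a measure that sets the muscle transcripts of each library to a common base and was chosen after the values were seen, the 10 genes went different ways. Acta1 stood at 979 ± 66.6 (SD, n = 4) and 991 ± 19.4 (SD, n = 5) and was nearly the same in each library, from 918 to 1064. Myh2 was higher in all 5 libraries labelled Il17ra-/- (63.8 ± 28.8 against 135 ± 18.2). Actn3 (111 ± 26.8 against 61.3 ± 10.2), Tnnc2 (22.2 ± 1.604 against 14.8 ± 1.54), Mylpf (237 ± 65.1 against 155 ± 19.6) and Tnnt3 (391 ± 57.8 against 299.6 ± 26.5) were lower in all 5, without overlap. Myh1, Myh4, Tnni2 and Atp2a1 overlapped. The log2 fold changes of the genes that form the base ran from 0.62 to 1.81 (median 1.12), so these values depend on which genes were chosen for it. A gene that rose less than the base is lower on this measure. In CPM, Actn3, Tnnc2, Mylpf and Tnnt3 all had positive log2 fold changes. How many of all tested genes do not overlap on this measure was not counted. No test was run on this measure.

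**Figure D4:**
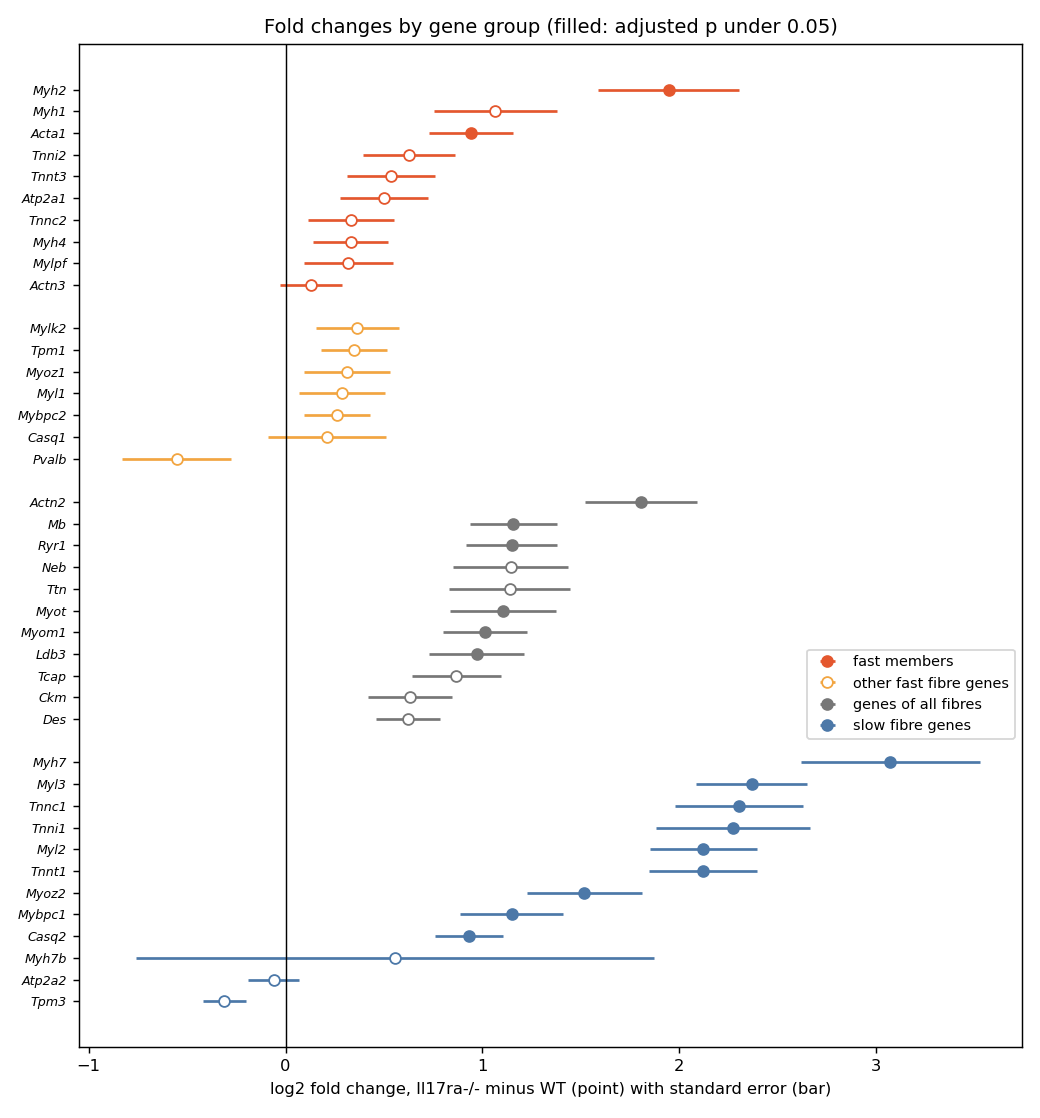
Log2 fold change (Il17ra-/- minus WT, horizontal axis) with its standard error for the 10 fast fibre genes, 7 further fast fibre genes, 11 of the 12 genes of all fibres (1 is not shown) and 12 slow fibre genes, each group sorted by value. Filled points were called at an adjusted p under 0.05; the fast genes run from 0.13 to 1.95 with 2 filled points, the slow genes reach 3.07 with 9.

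Of 12 regulators of fibre type 2 were called higher, among them Mef2c, and 10 were not called (median log2 fold change 0.50). Over all tested genes 1.35% were called higher. Mef2c, a MADS-box factor of muscle genes, stood at 53.9, 41.3, 54.8 and 42.4 CPM against 83.0, 80.6, 95.1, 89.2 and 68.4 CPM (0.79, SE 0.13, adjusted p = 0.0041). Its groups did not overlap. Of 8 genes of developing or regenerating fibres 6 were tested and none was called by edgeR, DESeq2 or limma voom, with none at an unadjusted p under 0.05. The 2 with the smallest p were Tnnt2 (2.10, adjusted p = 0.371) and Actc1 (−0.71, adjusted p = 0.585), and the embryonic myosin Myh3 did not exceed 1.64 CPM nor the neonatal myosin Myh8 3.30 CPM in any library.

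Markers of other cells were read in the same libraries. Of 3 satellite cell markers 2 rose (Pax7 and Cdh15), and their sum was 50.1 to 76.1 CPM in those labelled wild type and 104 to 129.5 CPM in the others. Of 4 smooth muscle and pericyte markers 2 rose (Myh11 and Rgs5; sums of 1198 to 1438 and 1760 to 2343 CPM), and of 4 adipocyte markers 1 rose (Adipoq; 2.07 to 6.82 and 7.90 to 28.4 CPM). None of the 5 connective tissue, 4 endothelial, 4 Schwann cell and 5 erythroid markers was called by edgeR, and 2 of the Schwann cell markers had an unadjusted p under 0.05. The 5 leukocyte markers, of which 3 were tested and none called, summed to 0.20 to 1.92 and 1.00 to 2.90 CPM. The part of these cell types in the values of the fast genes was not tested.

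The genes whose levels followed the fast myosins most closely over the 9 libraries differed between the 3. Likeness was measured by Pearson's r of log2(CPM + 1) among 10767 genes with a mean of at least 5 CPM, as a description, and r includes the difference between the groups. For Myh2 these were Ppp2r3a (r = 0.989), Actn2 (r = 0.988), Hrc, a calcium-binding protein of the sarcoplasmic reticulum (r = 0.986), and Lrrc2 (r = 0.985). For Myh1 they were Lrrc39, an M-band protein (r = 0.976), Arsj and Ankrd23 (both r = 0.960) and Lmo7 (r = 0.957). For Myh4 they were Cnn1, the calponin of smooth muscle (r = 0.910), Mybpc2, the fast myosin-binding protein C (r = 0.905), Zfp160 (r = 0.891) and Palmd (r = 0.889). The 4 genes most like Myh2 were all called higher, and none of those most like Myh1 or Myh4 was called. Because r includes the difference between the groups, this follows largely from how the genes were picked and is no separate result.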

How the data were processed

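RNA of 9 quadriceps samples was extracted with TRIzol and columns and made into TruSeq RNA v2 libraries, which do not mark strand, per the labels' protocols. The submitters' processing notes name STAR (version not stated). Per the file headers, the authors deposited raw counts of read pairs per gene from featureCounts 1.6.0 over exons of GENCODE M21 without strand. 

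Genes were filtered with filterByExpr, scaled with TMM and compared with edgeR 4.0.16 (R 4.3.3, quasi-likelihood test, two-sided, genotype label only, all 9 libraries), with Benjamini-Hochberg adjustment over all 16039 tested genes and a threshold of 0.05. SE was taken as the size of the log2 fold change divided by the root of its F. CPM values carry TMM factors. A count of 3 is 0.0646 to 0.0959 CPM (unscaled). Ratios use counts plus 0.5 and two-sided exact permutation tests over 126 splits, adjusted over 13 ratios. Alternatives were other scalings, DESeq2 1.42.0, limma 3.58.1 voom, other filters, left-out libraries and a replicate block. The scripts were tested on simulated data. The genes and lists were chosen with earlier results of these data known. Named genes are the 10 genes, their partners, called genes of each list (else up to 2 with the smallest p), the 4 genes most like each fast myosin (numbered gene models left aside) and Il17ra. Of the slow list, genes beyond the partners are given as counts. Neutral marker lists are given as sums. Promoters are from RefSeq (GRCm38.p6); MEF2 and CArG box follow their usual consensus. Some genes of the lists are not reported here.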

Additional observations from a re-analysis of the deposited data

Results flagged for a closer look

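In 62 checks of a group of 4 or 5 libraries, 7 held a library far from the rest by Dixon's criterion, which chance meets in about 1 in 20 groups. None of the 10 fast genes' own levels was among them. Il17ra-/- replicate 5 was involved in 5. It had the highest Actc1 of its group (21.1 CPM, next 7.68) and the lowest Tnnt1 (22.4 CPM, next 48.3). It also had the highest log2 count ratios of Myh4 to Myh7 (2.31, next 1.05), of Mylpf to Myl2 (2.96, next 1.93) and of Myh4 to Myh2 (0.40, next −0.39). Wild-type replicate 2 had the lowest log2 count ratio of Acta1 to Actc1 in its group (4.79, next 6.59) and the highest of Mylpf to Myl2 (4.18, next 3.56). These ratios are of counts, without division by exon length.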

How the results depend on the processing

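All 10 fast genes kept a positive log2 fold change in all 18 alternatives, 180 of 180 values, and 171 of these kept their side of the threshold. The size varied for the called genes and for those that did not pass. It ran from 1.70 to 2.25 for Myh2. For Acta1 it ran from 0.73 without wild-type replicate 4 to 1.12 without wild-type replicate 1. For Myh1 it ran from 0.81 without wild-type replicate 2 to 1.45 without wild-type replicate 1. Without wild-type replicate 4 the log2 fold change was 0.00 for Actn3 (0.13 with all libraries), 0.11 for Mylpf (0.32), 0.13 for Tnnc2 (0.33), 0.32 for Tnnt3 (0.53), 0.39 for Tnni2 (0.63) and 0.33 for Atp2a1 (0.50). Without wild-type replicate 1 it was 0.55 for Myh4 (0.33), 0.54 for Tnnc2 and 0.23 for Actn3. Without wild-type replicate 2 it was 0.54 for Mylpf and 0.25 for Actn3, without wild-type replicate 3 it was 0.07 for Actn3, and without Il17ra-/- replicate 5 it was 0.21 for Myh4 and 0.07 for Actn3. Without both libraries that stood apart it was 0.61 for Mylpf and 0.28 for Actn3, and with library totals 0.19 for Actn3. The number of fast genes called was 2, was 1 to 3 without a single library and was 1 with the replicate block, which lost Acta1 (1.05 against 0.94 without the block, adjusted p = 0.0616); the cause was not tested. Over all genes, 491 were called, 1026 with DESeq2, 275 to 567 without a single library and 363 with the replicate block. The replicate numbers share no stated animal or day. Deviations from the group means correlated at −0.02 to 0.06 between same-numbered libraries, and 2 of 4 wild-type libraries correlated best with their own number. The difference in the log2 ratio of Myh1 to Myh2 was −1.10 to −0.75 and that of Myh4 to Myh2 −2.20 to −1.58 without a single library. Without both libraries that stood apart they were −0.95 and −1.50, where 3 against 4 libraries cannot give a p below 0.0571. The difference for Myh4 to Myh1 was −1.10 to −0.54 without a single library. Adding 5 or 0 to the counts in place of 0.5 changed no call of a ratio. Lists of the other fibre genes were also run through the 18 alternatives, a choice made after seeing the data.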
